A study of Mus musculus with 8 samples.

Results

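R-loop peaks were examined at 38 genes that encode Polycomb proteins, MLL methyltransferases and other chromatin regulators, in haematopoietic stem cells of young and aged mice. A gene was taken to carry a peak when the summit of a deposited peak lay within its GRCm38 bounds extended by 1 kb on either side. All 38 symbols were found among 34614 protein-coding and lncRNA genes of the RefSeq table, and 60 of the 40207 deposited peaks fell at them, 31 of 24009 young and 29 of 16198 aged. The cells were sorted from bone marrow by the presence of Sca1 and cKit and the absence of CD34 and lineage markers. DNA:RNA hybrids were pulled down with antibody S9.6 and sequenced strand by strand (ssDRIP-seq), from 2 immunoprecipitated and 2 input libraries for each age. The labels name the groups young and aged only, and the sources used here give no age in months, sex or strain. The deposition consists of 1 forward and 1 reverse peak list for each age, in which the replicates are combined, so no difference between ages could be tested and every comparison of the ages below is a description.

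An R-loop forms when a nascent transcript pairs again with its template DNA and leaves the other DNA strand unpaired. Polycomb repressive complex 2 (PRC2) methylates lysine 27 of histone H3 and Polycomb repressive complex 1 (PRC1) ubiquitinates histone H2A, and both keep developmental genes silent. MLL proteins methylate lysine 4 of histone H3 and act against Polycomb silencing, and fusions of the MLL gene Kmt2a cause acute leukaemia. SWI/SNF and CHD enzymes move nucleosomes. Many of these factors set the balance between self-renewal and differentiation in blood stem cells.

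The windows around gene starts that lay partly under or nearest to the peaks at Chd1, Kmt2e and Kmt2d described below are shown first. The summits of these peaks lay outside the windows, so the base composition given is that of the windows and not of the peaks. The windows are RefSeq promoter windows of assembly GRCm38.p6, from 250 bases before to 50 bases after an annotated start. Each is written 5′ to 3′ on the strand of the gene it belongs to. The promoter table matched 29 of the 38 genes. Chd1 and Kmt2e have no entry in it, so the start window of the lncRNA gene that lies beside each is shown instead. These are 5830433I10Rik at the lower bound of Chd1 (chr17:15705328-15705627, minus strand, build GRCm38.p6) and 5031425E22Rik at the lower bound of Kmt2e (chr5:23433287-23433586, minus strand). Capitals in the first mark the 165 bases under the aged forward peak, capitals in the second the 7 bases under the aged reverse peak, and capitals in the third, the Kmt2d window (chr15:98871156-98871455, minus strand), mark CpG dinucleotides.
5830433I10Rik start beside Chd1: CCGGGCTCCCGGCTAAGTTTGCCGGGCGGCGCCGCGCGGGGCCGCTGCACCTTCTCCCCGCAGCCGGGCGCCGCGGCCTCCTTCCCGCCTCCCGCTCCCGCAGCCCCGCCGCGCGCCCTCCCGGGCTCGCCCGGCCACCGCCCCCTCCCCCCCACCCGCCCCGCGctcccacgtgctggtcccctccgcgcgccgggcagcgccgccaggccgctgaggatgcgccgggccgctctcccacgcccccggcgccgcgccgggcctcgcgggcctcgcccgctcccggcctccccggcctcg
5031425E22Rik start beside Kmt2e: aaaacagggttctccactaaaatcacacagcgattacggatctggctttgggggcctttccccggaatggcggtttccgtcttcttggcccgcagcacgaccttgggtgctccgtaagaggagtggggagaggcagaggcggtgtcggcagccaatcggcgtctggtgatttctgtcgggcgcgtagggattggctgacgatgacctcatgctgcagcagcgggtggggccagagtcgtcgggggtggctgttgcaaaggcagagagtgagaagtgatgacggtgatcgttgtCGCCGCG
Kmt2d start: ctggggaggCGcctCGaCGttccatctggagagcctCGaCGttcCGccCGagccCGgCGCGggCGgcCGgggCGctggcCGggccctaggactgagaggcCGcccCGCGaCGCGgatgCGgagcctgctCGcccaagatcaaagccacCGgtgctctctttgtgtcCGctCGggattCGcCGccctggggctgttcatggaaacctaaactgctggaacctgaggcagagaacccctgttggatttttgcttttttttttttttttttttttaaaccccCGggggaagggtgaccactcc
The window beside Chd1 was the richest of the 3 in GC, at 85.3% with 52 CpG dinucleotides, and had more C than G on the strand shown (GC skew, the excess of G over C divided by their sum, of -0.27). The window beside Kmt2e had 60.3% GC, 24 CpG and a skew of 0.24 towards G. The Kmt2d window had 62.7% GC, 27 CpG and a skew of 0.01.

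Of the 38 genes, 24 carried a peak in at least 1 age, where 33.3% of protein-coding genes did. A young peak lay at 18 genes (47.4%) and an aged peak at 17 (44.7%), where 23.8% of all 21887 protein-coding genes carried a young peak and 20% an aged peak. With lncRNA genes counted in, 19.8% and 16.1% of genes did. Both ages had a peak at 11 genes (28.9%, against 10.6% of protein-coding genes), young only at 7 (18.4% against 13.3%) and aged only at 6 (15.8% against 9.43%). No peak in either age was found at 14 genes (36.8% against 66.7%). These were the PRC2 methyltransferase genes Ezh1 and Ezh2, the PRC1 genes Bmi1, Ring1, Rnf2, Cbx2, Cbx7, Cbx8, Phc1, Phc2 and Pcgf1, the MLL cofactor gene Men1, the H3K79 methyltransferase gene Dot1l and the SWI/SNF ATPase gene Smarca4.

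Gene length went with the presence of a peak. The 38 genes had a median length of 65.4 kb against 17.2 kb for protein-coding genes. All 8 genes over 100 kb carried a peak in at least 1 age, and none of the 6 genes up to 20 kb did. Across the 38 genes the Spearman correlation of length with the number of peaks was 0.65, given as a description, with all genes read from the same 4 lists. In young, 7 of the 8 genes over 100 kb carried a peak, 87.5% against 77.9% of protein-coding genes of that length. The share was 46.2% of 13 genes between 50 and 100 kb (45.3% of protein-coding genes) and 45.5% of 11 genes between 20 and 50 kb (24.7%). In aged the shares were 87.5%, 53.8% and 27.3%, against 66.7%, 36.4% and 19.4% of protein-coding genes. Up to 20 kb, 7.82% of protein-coding genes had a young and 7.18% an aged peak. The excess over all protein-coding genes was thus smaller once genes of like length were set side by side. Per Mb of extended gene, the 38 genes held 10.7 young summits (95% exact Poisson interval 7.24 to 15.1) and 9.96 aged summits (6.67 to 14.3). Protein-coding genes held 9.15 (8.97 to 9.33) and 6.51 (6.36 to 6.67). With all 4 lists cut to the length of the shortest, the 38 genes held 7.22 young and 9.62 aged summits per Mb. These were 21 and 28 summits. The order of the ages thus turned, and the density of protein-coding genes was not recomputed with these lists. These intervals, and all below, cover counting error only.

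**Figure D1:**
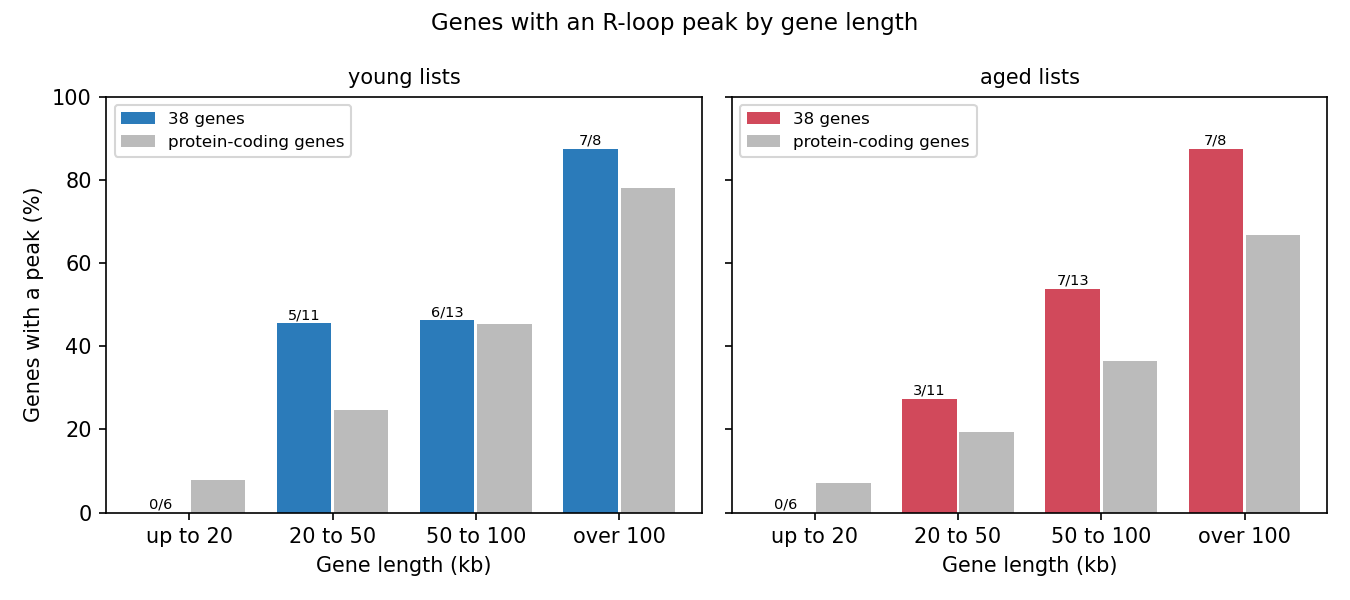
Share of genes with an R-loop peak (percent, bars from 0) by gene length class in kb, for the young lists (left) and the aged lists (right). Coloured bars are the 38 chromatin regulator genes with their counts above, and grey bars all protein-coding genes; in both the share rises with length, from 0 of 6 in the shortest class to 7 of 8 in the longest.

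Most peaks at these genes were small. The young peaks had a median of 8 reads at the summit (6 to 144) and a median fold of 4.5 (3.14 to 29), where fold is the authors' ratio of immunoprecipitated signal over local background. The aged peaks had a median of 7 reads (5 to 97) and a median fold of 4.2 (3.25 to 24.5). All peaks in protein-coding genes had medians of 8 reads in each age, with median folds of 4.8 (young) and 4.73 (aged). The genome background was taken as the 5th percentile of the local backgrounds recovered at the listed peaks of an age. It was 0.823 reads (young) and 0.689 reads (aged), and stands in for depth because the files give no read totals. A peak at that level reached the lists from 6 reads in young and from 5 in aged, and a raised local background called for more. The absence of a peak therefore says only that the reads found did not pass the threshold of the lists. A −log10 q of at least 5 was reached at 3 genes in young (7.89%, against 4.51% of protein-coding genes), namely Jarid2, Kmt2a and Arid1b. In aged it was reached at 6 genes (15.8%, against 5.39%), namely Jarid2, Kmt2c, Kmt2e, Setd2, Smarca2 and Chd1. This minimum was not alike in the ages. Over the genome background 10 reads gave a −log10 q of 4.89 in young (Suz12) and of 5.74 in aged (Kmt2c). The shares were not matched for length.

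PRC2 genes held 6 peaks in each age, at 4 of 7 genes in young (57.1%) and 3 of 7 in aged (42.9%), against 23.8% and 20% of protein-coding genes. These shares were not matched for length, and the 7 genes run from 20.6 kb (Phf19) to 191 kb (Jarid2). Of protein-coding genes, 24.7% between 20 and 50 kb, 45.3% between 50 and 100 kb and 77.9% over 100 kb had a young peak. For aged peaks these shares were 19.4%, 36.4% and 66.7%. Jarid2, which encodes a DNA-binding cofactor of PRC2, held 3 peaks in each age. Its strongest peak was also the strongest at any of the 38 genes in both ages. It lay on the reverse strand 139 kb inside the gene (chromosome 13, 44869572 to 44870026 in young and 44869572 to 44869947 in aged). The summits were 1 bp apart, with 144 reads over a local background of 4 in young and 97 over 3 in aged, with folds of 29 and 24.5. The local background was 4.86 times the genome level in young and 4.35 times in aged, so the background was raised at this site as well. A young forward peak of 13 reads and fold 7.68 began at the same base (44869572 to 44869813), over the plain genome background. Aged had no forward peak there. The site was therefore the only case among the 60 peaks in which peaks of both strands of 1 age overlapped, 2 of 31 young peaks (6.45%, 95% Wilson interval 1.79 to 20.7) and 0 of 29 aged peaks (up to 11.7%). Over all deposited peaks 1.62% of young and 9.24% of aged peaks met the opposite strand. The other Jarid2 peaks lay on the forward strand at 59.1 kb from the start in aged (10 reads, fold 5.8) and at 106 kb in young (11 reads, fold 6), and on the reverse strand at 185 kb in aged (6 reads, fold 3.67).

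The other PRC2 genes had smaller peaks, none of which overlapped a same-strand peak of the other age. Suz12, a core subunit that holds the complex together, had a forward peak of 10 reads and fold 6.04 in young (chromosome 11, 80015611 to 80015798) and of 6 reads and fold 4.14 in aged (80009414 to 80009599). These summits were 6.26 kb apart. Eed, the subunit that binds trimethylated H3K27, had a young peak of 9 reads and fold 5. Mtf2, a Polycomb-like DNA-binding subunit, had a young peak of 7 reads and fold 3.66. Phf19, the related Polycomb-like subunit, had 2 aged peaks on the reverse strand within 1 kb of each other, of 9 reads (fold 5.92; chromosome 2, 34905125 to 34905416) and 6 reads (fold 4.14), and no young peak. Ezh1 and Ezh2, the catalytic subunits, had none.

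PRC1 genes held 2 young peaks and 1 aged peak. A young peak lay at 2 of 11 genes (18.2%) and an aged peak at 1 (9.09%), below the 23.8% and 20% of protein-coding genes, but with counts this small the gap cannot be told from background. The density was 4.52 young (0.548 to 16.3) and 2.26 aged (0.0573 to 12.6) summits per Mb. Pcgf5, a PCGF subunit of a variant PRC1, had a forward peak in young (10 reads, fold 4.31; chromosome 19, 36405427 to 36405613) and a forward peak in aged (7 reads, fold 4.2; 36359402 to 36359652), 46.1 kb apart. Phc3, a polyhomeotic subunit, had a young forward peak of 7 reads and fold 4.39. Of the 9 PRC1 genes without a peak, 5 were up to 20 kb long (Bmi1, Ring1, Cbx2, Cbx8 and Pcgf1). Rnf2, which encodes the main ubiquitin ligase, has 31.6 kb, and Phc2, the longest without a peak, has 98.2 kb.

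Among MLL genes and their partners, 2 of 7 had a young peak (28.6%), near the 23.8% of protein-coding genes, and 4 of 7 an aged peak (57.1%, against 20%). The difference between the ages was not tested. These shares were not matched for length, and the 7 genes run from 5.92 kb (Men1) to 227 kb (Kmt2c). Of protein-coding genes, 19.4% between 20 and 50 kb, 36.4% between 50 and 100 kb and 66.7% over 100 kb had an aged peak. Kmt2a, which encodes the MLL1 methyltransferase, had peaks in both ages, all on the reverse strand. The young peak held 11 reads with a fold of 6.57 (chromosome 9, 44812025 to 44812218). The aged peaks held 9 reads with a fold of 5.92 (44826300 to 44826541) and 6 reads with a fold of 4.14 (44834496 to 44834785), and the nearest of them was 14.3 kb from the young summit. Kmt2c, which encodes an enhancer H3K4 methyltransferase, had an aged peak of 10 reads and fold 6.51, deep in the gene (chromosome 5, 25349631 to 25349884). Kmt2b, a close relative of Kmt2a, had an aged peak of 5 reads and fold 3.55. Kmt2d, a close relative of Kmt2c, had a young reverse peak of 9 reads and fold 5.48 (chromosome 15, 98872654 to 98872846). Its summit lay 1.33 kb inside the upper bound of the gene and 1293 bp from the Kmt2d start window printed above, on the side before that start.

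Kmt2e, which encodes a SET-domain protein needed for normal blood stem cell function, had no young peak and the strongest aged peak of the group. It held 14 reads over 0.69, with a fold of 8.88, on the reverse strand (chromosome 5, 23432929 to 23433293), and its summit lay 128 bp inside the lower bound of Kmt2e. The lncRNA gene 5031425E22Rik, on the minus strand, overlaps this end of Kmt2e, and 7 bases of the peak reach into its start window, the second sequence above. The nearest young summit on the same strand was 123 kb away. Whether the signal belongs to Kmt2e or to 5031425E22Rik cannot be told apart from position.

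Histone demethylase genes held small peaks. Kdm5a, an H3K4 demethylase gene, had a young reverse peak of 8 reads (fold 4.5; chromosome 6, 120367345 to 120367782) and 2 aged reverse peaks of 7 and 6 reads (folds 4 and 3.35). The nearest summits of the ages were 2.43 kb apart. Its relative Kdm5b had an aged reverse peak of 7 reads and fold 4.73. Kdm6b, an H3K27 demethylase gene, had a young reverse peak of 9 reads and fold 5.48.

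Both H3K36 methyltransferase genes, of 86.1 and 109 kb, had young peaks. So did 45.3% of protein-coding genes between 50 and 100 kb and 77.9% of those over 100 kb. Setd2, the H3K36 trimethylase gene, had forward peaks only: 2 in young, of 8 reads (fold 4.71; chromosome 9, 110571546 to 110571738) and 6 reads (fold 3.5), and 1 in aged of 10 reads (fold 6.51; 110574017 to 110574259). The aged summit lay 2.53 kb from the nearer young summit. Nsd1, a dimethylase gene, had 3 young peaks of 7, 8 and 7 reads and no aged peak. The first of these (fold 4.39; chromosome 13, 55209950 to 55210143) had its summit 293 bp inside the lower bound of the gene.

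**Figure D2:**
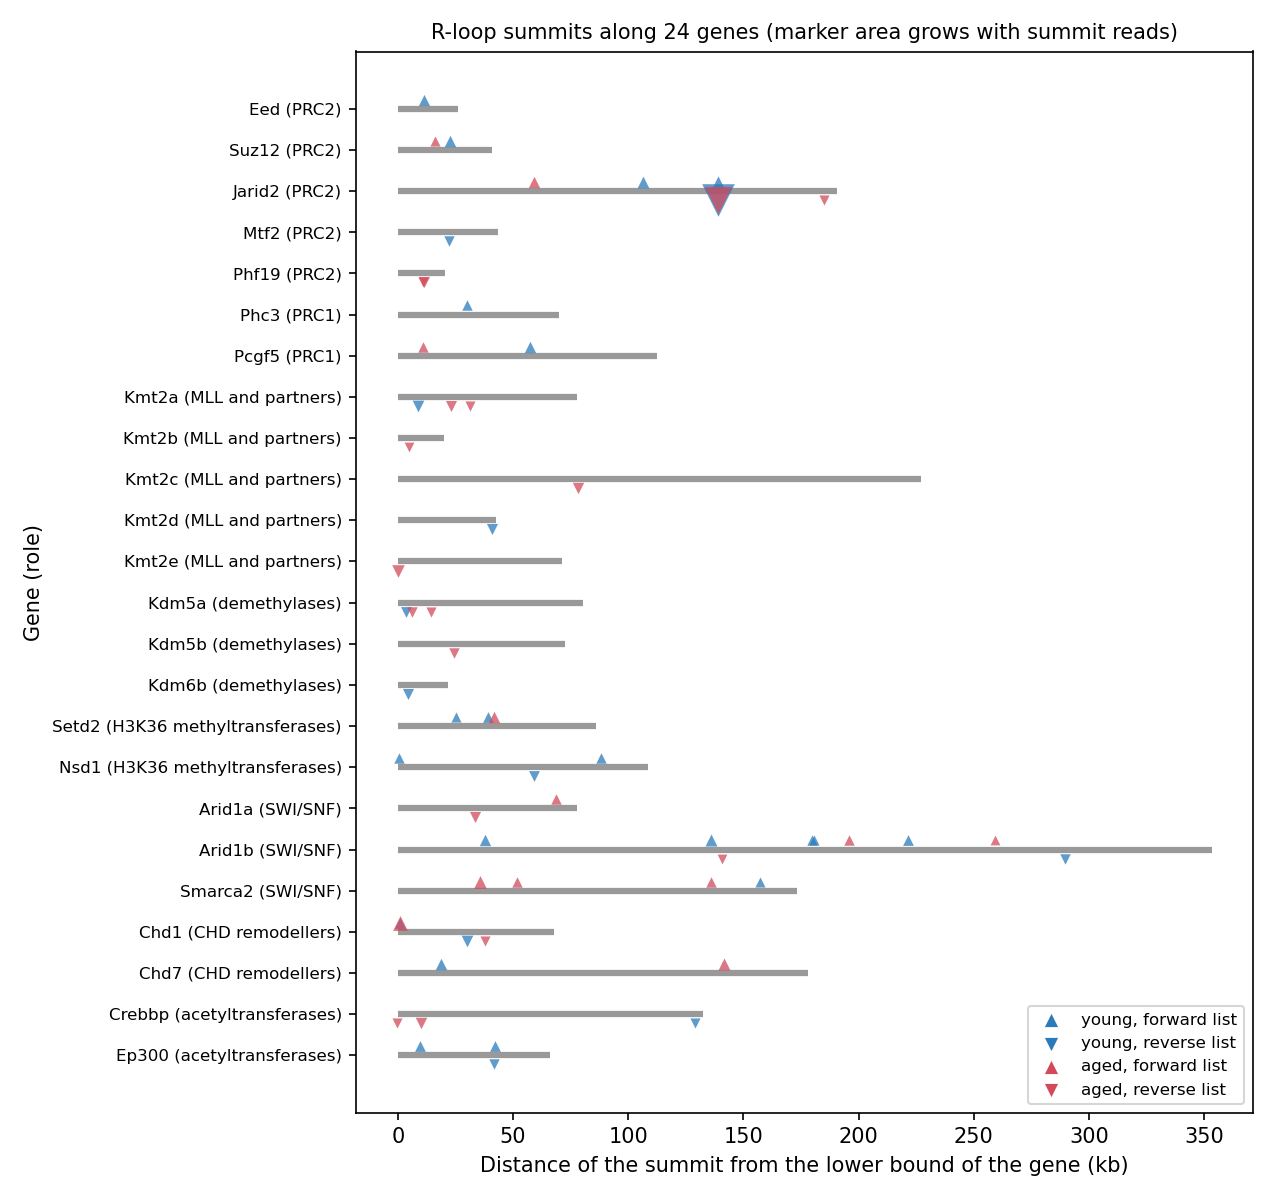
Position of each summit along the 24 genes with a peak, as distance in kb from the lower bound of the gene on the chromosome, with grey bars for the gene bodies. Upward triangles are peaks of the forward lists and downward triangles of the reverse lists, blue for young and red for aged, and their area grows with the reads at the summit; the large overlapping triangles at 139 kb are the Jarid2 site of 144 young and 97 aged reads.

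SWI/SNF genes held 7 young peaks at 2 of 4 genes (50%) and 8 aged peaks at 3 of 4 (75%). Across protein-coding genes 23.8% carried a young and 20% an aged peak. The 4 genes run from 77.8 to 353 kb. Of protein-coding genes between 50 and 100 kb 45.3% had a young and 36.4% an aged peak, and over 100 kb 77.9% and 66.7%. Arid1b, an accessory subunit gene of 353 kb and the longest of the 38, held 9 of the SWI/SNF peaks, 6 young and 3 aged. The strongest was a young forward peak of 12 reads and fold 6.5 (chromosome 17, 5129975 to 5130162), and the others had folds between 3.14 and 4.74. None of the 9 overlapped a peak of the other age, and the summit of 1 young peak (fold 4.5, 8 reads) also lay in the window of the lncRNA gene Gm34854. Arid1a, its paralogue, had 2 aged peaks, of 9 reads on the reverse strand (fold 5) and 7 reads on the forward strand (fold 4.74), and no young peak. Smarca2, which encodes the BRM ATPase, had forward peaks only. The aged peaks held 15, 7 and 7 reads, with folds of 9.47, 4 and 4, and the strongest lay 35.7 kb from the start (chromosome 19, 26640635 to 26640904). The young peak held 6 reads with a fold of 3.49 and lay 157 kb from the start. The aged fold of 9.47 was the highest among peaks over the plain genome background at the 38 genes. Smarca4, which encodes the BRG1 ATPase, had no peak at a length of 88.1 kb.

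Chd1, which encodes a remodeller that travels with RNA polymerase II, was the other gene with a site found in both ages. On the forward strand it had a young peak of 9 reads (fold 4; chromosome 17, 15705623 to 15705898) and an aged peak of 23 reads (fold 9.6; 15705463 to 15705941). The summits were 48 bp apart, 751 and 799 bp inside the lower bound, over the same local background of 1.5 reads in each age. The aged summit thus held 2.56 times the reads of the young summit, although the genome background was lower in aged. The aged peak covered 165 bases and the young peak 5 bases of the 5830433I10Rik start window, the first sequence above. Both summits also lay within 1 kb of 5830433I10Rik, a lncRNA gene on the minus strand. Chd1 further had a reverse peak in each age, of 11 reads in young (fold 4) and 6 in aged (fold 4.14), 7.54 kb apart. Chd7, the CHD gene mutated in CHARGE syndrome, had a young forward peak of 10 reads (fold 5.5) and an aged forward peak of 12 reads (fold 3.25). The aged Chd7 peak lay over a local background of 3 reads and so had the lower fold with more reads. Both CHD genes thus carried a peak in each age, where 23.8% (young) and 20% (aged) of protein-coding genes of any length did. Chd1 has 67.6 kb and Chd7 178 kb. Of protein-coding genes between 50 and 100 kb 45.3% had a young and 36.4% an aged peak, and over 100 kb 77.9% and 66.7%.

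The acetyltransferase genes Crebbp and Ep300, paralogues that acetylate lysine 27 of histone H3, differed in where and when peaks were listed. Both carried a young peak and Crebbp alone an aged peak, where 23.8% and 20% of protein-coding genes of any length did. Crebbp has 133 kb, and 77.9% of protein-coding genes over 100 kb had a young and 66.7% an aged peak. Ep300 has 65.9 kb, and between 50 and 100 kb the shares were 45.3% and 36.4%. Crebbp had 2 aged reverse peaks, of 10 reads (fold 5.77; chromosome 16, 4091083 to 4091292) and 6 reads (fold 4.14; 4080980 to 4081419). The second of these had its summit 272 bp outside the lower bound, which is the end of this minus-strand gene, and was the only summit of the 60 that lay outside gene bounds. The young reverse peak of 6 reads (fold 3.83) lay at the other end, 3.59 kb from the start. Ep300 had 3 young peaks of 8, 7 and 8 reads, with folds between 4.38 and 4.94, and no aged peak. Beyond the 1 kb limit but within 5 kb lay 7 more summits, the closest at Kdm5b (aged, 1.16 kb outside, 7 reads, fold 4.74) and Dot1l (aged, 1.87 kb, 8 reads, fold 5.33). Crebbp had a reverse summit in each age beyond its end, at 2.19 kb in young (10 reads, fold 3.14) and 2.14 kb in aged (9 reads, fold 4).

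**Figure D3:**
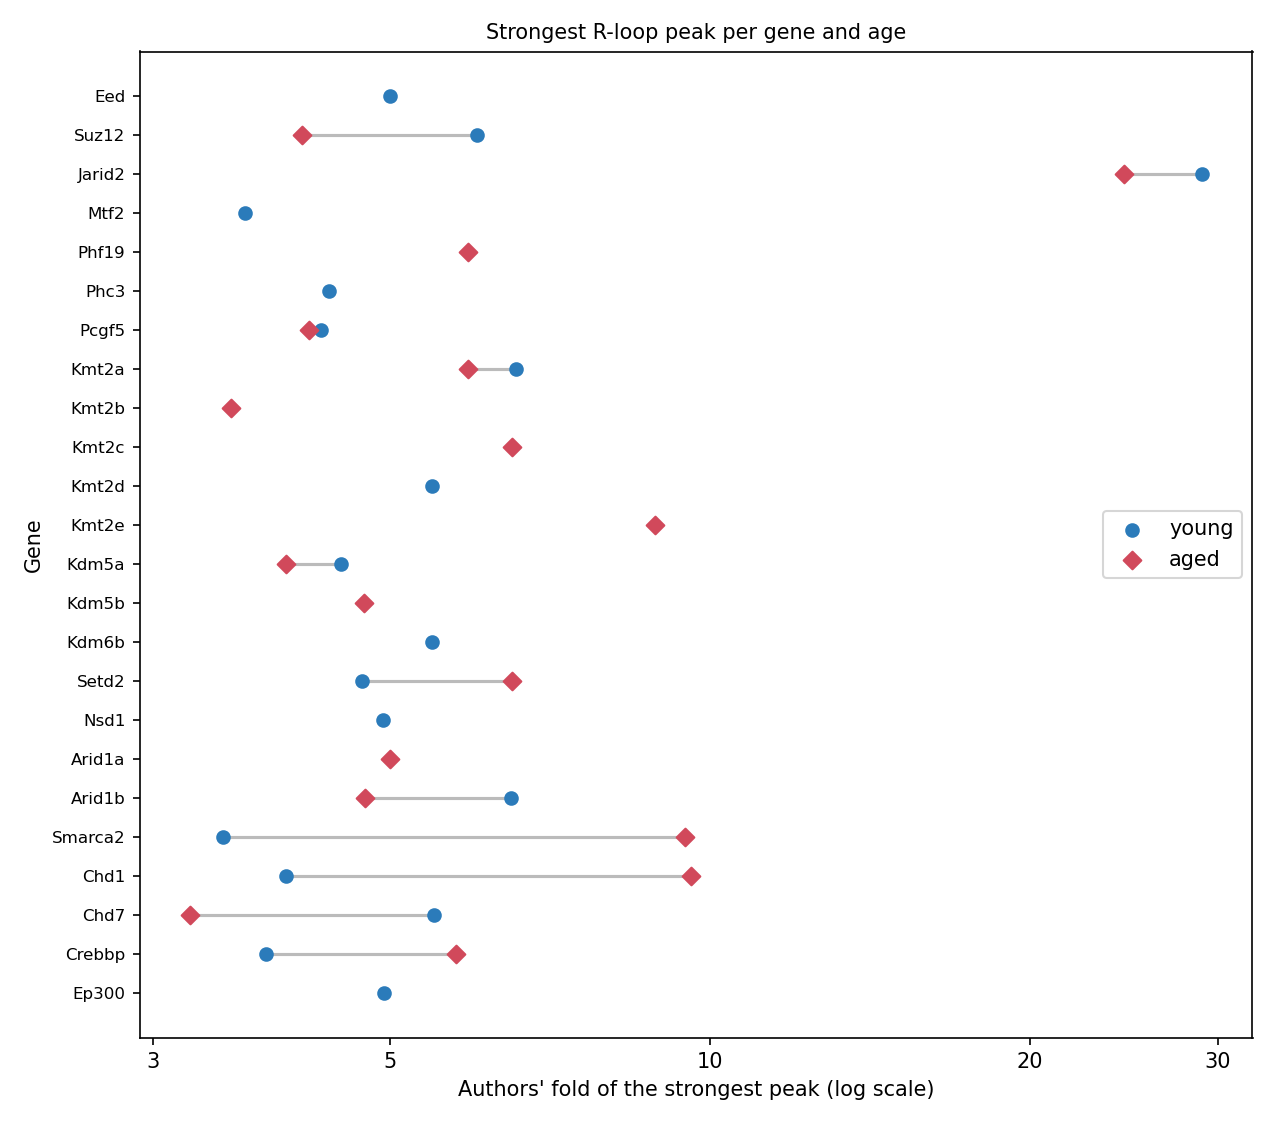
Authors' fold (log axis) of the peak with the highest −log10 p at each of the 24 genes, circles for young and diamonds for aged, with a line joining the ages where both have a peak. Jarid2 stands apart at 29 and 24.5, and aged folds above 8 are at Kmt2e, Smarca2 and Chd1; the joined peaks need not lie at the same site.

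Few sites were found again in the other age, as was the case for the deposited peaks at large. Of the 31 young peaks 2 (6.45%, 1.79 to 20.7) and of the 29 aged peaks 2 (6.9%, 1.91 to 22) had a same-strand counterpart in the other age, at Jarid2 and Chd1. Over all deposited peaks 7.29% of young and 10.7% of aged peaks had one. The nearest same-strand summit of the other age was more than 1 kb away for 29 of the 31 young peaks (93.5%) and 27 of the 29 aged peaks (93.1%), against 91.9% and 88.1% of all deposited peaks. The median distance was 45.3 kb for young and 46.1 kb for aged peaks, against 96.4 kb and 59.7 kb over all peaks. At the 9 other genes with peaks in both ages no listed peak overlapped a same-strand peak of the other age, which does not show that the signal there lay at different sites.

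The share of summits near gene ends was close to that of protein-coding genes. Of the young summits 2 of 31 (6.45%, 1.79 to 20.7), at Chd1 and Nsd1, and of the aged summits 3 of 29 (10.3%, 3.58 to 26.4), at Chd1, Kmt2e and Crebbp, lay within 1 kb of a gene bound. Among all summits in protein-coding genes the shares were 7.36% and 10.5%. None of the 38 promoter windows of the 29 matched genes overlapped a peak, where 0.487% of all 32851 windows overlapped a young and 0.377% an aged peak. At rates this low, 38 windows are too few to show a difference. The matched genes also leave out Chd1, Kmt2e and Nsd1, which had summits within 1 kb of the lower bound. The 38 windows had a median GC content of 65.8% and a median of 29.5 CpG, against 52.7% and 7 for all windows. The run GGGG was found in 84.2% and the run CCCC in 86.8% of them, read on the strand of the gene, against 69% and 66.6% of all windows. The windows of genes with a peak had a median GC of 68.3% and a GC skew of 0.054, and those of genes without a peak 65.2% and 0.031. Exons and introns were not analysed here.

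The strand of the peaks followed the strand of the gene more often than not. This comparison was added after the peaks and the gene strands had been seen. The promoter table gives the gene strand for 29 of the 38 genes, and 17 of these carried a peak. Another 7 genes with a peak have no entry and were left out: Chd1, Chd7, Kdm5a, Kdm6b, Kmt2b, Kmt2e and Nsd1. The comparison thus covers 45 of the 60 peaks. A peak was counted on the strand of its gene when a plus-strand gene had a peak in a forward list, or a minus-strand gene in a reverse list. Which DNA strand the forward list stands for is not explained by the labels, so the count does not tell template from nontemplate strand. Of 45 peaks, 34 (75.6%, 95% Wilson interval 61.3 to 85.8) were on the strand of their gene, 17 of 23 young peaks (73.9%, 53.5 to 87.5) and 17 of 22 aged peaks (77.3%, 56.6 to 89.9). In protein-coding genes as a whole 46.5% (45.4 to 47.7) of 7138 young peaks and 53.8% (52.5 to 55.2) of 5054 aged peaks were. In protein-coding genes over 20 kb the shares were 46% and 52.6%. Peaks at a gene share that gene, so these intervals are too narrow if peaks of a gene are not independent.

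Gene by gene, 11 of the 17 genes had more peaks on their own strand, 4 had more on the opposite strand and 2 had equal numbers. In 9 genes every peak was on the strand of the gene. These were the minus-strand genes Phf19, Kmt2a, Kmt2c, Kmt2d and Crebbp, whose peaks all lay in reverse lists, and the plus-strand genes Suz12, Pcgf5, Setd2 and Smarca2, whose peaks all lay in forward lists. Arid1b had 7 of 9 and Ep300 2 of 3 peaks on its own strand. Arid1a (1 of 2) and Jarid2 (3 of 6) were split. Eed, Mtf2, Phc3 and Kdm5b had 1 peak each, on the opposite strand. A young peak on its own strand was carried by 10 of the 29 genes (34.5%) and a young peak on the opposite strand by 6 (20.7%), against 14.1% and 14.9% of protein-coding genes with a strand entry. For aged peaks the numbers were 11 (37.9%) and 4 (13.8%), against 13% and 10.9%. By role, 5 of 5 peaks with a strand entry at MLL genes (56.6 to 100%) were on the strand of the gene. The peaks of Kmt2b and Kmt2e have no entry and are not among them. The counts were 12 of 15 at SWI/SNF genes (54.8 to 93%), 7 of 12 at PRC2 genes (32 to 80.7%) and 2 of 3 at PRC1 genes (20.8 to 93.9%). In protein-coding genes the share over both ages was 49.6%. Without Arid1b, which holds 9 of the 45 peaks, the share was 75% (58.9 to 86.2).

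**Figure D4:**
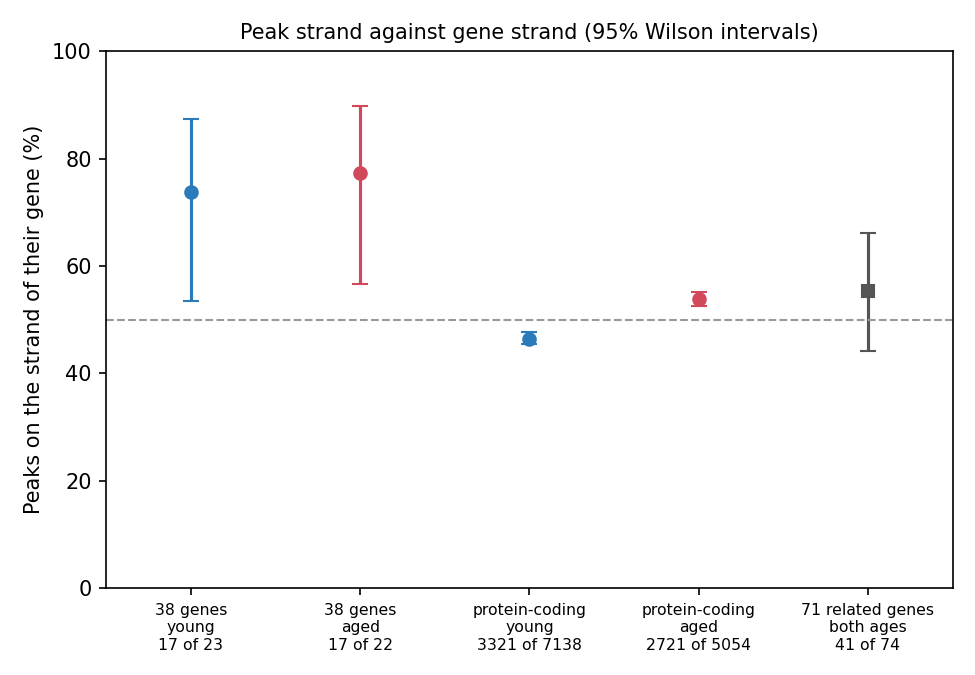
Percent of peaks on the strand of their gene, with 95% Wilson intervals, counting only genes with a strand entry. Points are the 38 chromatin regulator genes by age (29 with an entry), protein-coding genes by age, and 71 related genes with both ages together. The numbers of peaks stand under each point and the dashed line marks 50%. The points of the chromatin regulator genes lie at 73.9% and 77.3%, and the others between 46.5% and 55.4%.

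Other genes of the same complexes were listed separately, 71 in all, such as further PRC1, COMPASS, SWI/SNF, CHD and acetyltransferase genes. Of these, 23 (32.4%) carried a young and 32 (45.1%) an aged peak, against 23.8% and 20% of protein-coding genes, at any length. A peak in both ages lay at 17, in young only at 6, in aged only at 15 and in neither at 33, where 10.6%, 13.3%, 9.43% and 66.7% of protein-coding genes fell into these classes. They held 48 young and 44 aged peaks. Their peaks were on the strand of the gene in 41 of 74 cases (55.4%, 44.1 to 66.2), a share close to that of protein-coding genes. The strongest peak among them lay at the acetyltransferase gene Kat2b on the reverse strand, at the same bases in both ages (chromosome 17, 53616062 to 53616306). It held 18 reads with a fold of 10.4 in young and 58 reads with a fold of 28.3 in aged. The next young folds were 6.58 at Bcor, a corepressor gene of a variant PRC1, and 6.57 at both Pcgf3, a variant PRC1 gene, and Mllt10, a cofactor gene of DOT1L. The next aged folds were 9.47 at the SWI/SNF gene Arid2, 7.11 at the acetyltransferase gene Kat6b and 6.5 at the corepressor gene Bcorl1.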

How the data were processed

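The members, gene lists and role groups were chosen with earlier results of these data known. The submitters' processing notes name build GRCm38, the aligner Bowtie2 2.4.4, MACS3 3.0.0b1, deepTools 3.5.1 and Trim Galore, with no order or settings. The sources used here give neither the way inputs and replicates were combined nor the meaning of the word normalized in the peak names.

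Each line of the authors' 4 lists gives a peak, its score (the whole part of 10 times the −log10 q), its fold as a ratio over local background, and its −log10 p and −log10 q. The summit offset is the authors' other column that was used. The lowest deposited −log10 q was 1.32. Summit reads and local background were recovered as the whole number of reads that satisfies both the fold, (reads + 1)/(background + 1), and the Poisson −log10 p, within 0.1%. This held for 100% of the 60 peaks and for 99.6% of all peaks. The step was tested on simulated data and returned the planted number of reads for 100% of 819 simulated peaks. These were made with the same formulas, and only those with a finite −log10 p were kept. The simulation thus checks the calculation and not whether the deposited values follow the formulas.

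Summits were placed in RefSeq GRCm38.p6 gene bounds extended by 1 kb. Gene strand came from the promoter table. The background share of strands used summits in the window of 1 gene only. Overlap meant at least 1 bp. Intervals are 95% Wilson or exact Poisson. Peaks overlapping between ages or strands, with a fold of at least 7, a −log10 q of at least 5 or a summit within 1 kb of a gene bound have full values; the other genes have reads and fold. No test was run. Alternatives were a −log10 q or fold of at least 5, at least 10 reads, lists of equal length, and other windows and overlaps. Python 3.11.15, numpy 2.4.6, pandas 2.3.3 and scipy 1.17.1 were used.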

Additional observations from a re-analysis of the deposited data

How the results depend on the processing

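Of 78 recomputed values 58 stayed within 1.5 times the reported count or within the interval of the reported value, and 20 moved. The choices that moved values were the stricter thresholds and the shortened young lists, which keep fewer peaks by construction. Genes with a young peak numbered 18, and fell to 3 when a −log10 q of 5 was the minimum, to 7 when a fold of 5 was, and to 7 with 10 reads or more. Genes with an aged peak numbered 17, and 6, 9 and 8 in these settings. Protein-coding genes were recounted only under the q minimum, at 4.51% in young and 5.39% in aged. No such background stands beside the other counts. Young summits per Mb fell from 10.7 to 1.72, 3.09 and 3.44, and to 7.22 with lists of equal length (8088 peaks each). Aged summits per Mb fell from 9.96 to 2.06, 3.44 and 3.09. The order of the ages thus turned with both of the first settings, on 5 young and 6 aged summits and on 9 and 10. It also turned with equal lists (9.62 in aged), on 21 and 28 summits. No density over protein-coding genes was computed in these settings. The share of young peaks that met the other strand was 40% under the q minimum and 22.2% under the fold minimum, in both cases the 2 Jarid2 peaks. The share of young summits within 1 kb of a gene bound was 0 at each of the 3 thresholds, and the aged share was 33.3% (2 of 6) under the q minimum. The share of young peaks on the strand of their gene was 87.5% (7 of 8) at 10 reads or more. In all 7 alternatives it lay between 70.6% and 87.5% in young and between 75% and 87.5% in aged. The q minimum left only 5 young and 4 aged peaks. With the thresholds and equal lists, the share in protein-coding genes lay between 46.2% and 46.9% in young and between 53.2% and 54.9% in aged. Overlap with the other age stayed within its interval in every setting run, on 1 to 3 peaks. No paired analysis was possible because each list combines the replicates of an age. Most of the 60 peaks hold under 10 reads, close to the smallest number that was listed, so a peak listed for young or aged alone does not by itself show a difference between them.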
